A study of Mus musculus with 4 samples.

Results

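Notch signalling passes between touching cells. A Jagged or Delta-like ligand on the sending cell binds a Notch receptor on its neighbour, the receptor is cut, and the part released inside the cell joins the DNA-binding protein RBPJ in the nucleus and switches on target genes. Among these targets are the Hes and Hey repressors and the feedback inhibitor Nrarp. In the epidermis, the pathway is best known for moving keratinocytes out of the basal layer into the differentiating layers, and it also acts in the hair follicle and the sebaceous gland.

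The 9 genes described here are the receptors Notch1, Notch2 and Notch3, the ligands Jag1, Jag2 and Dll1, and the targets Hes1, Hey1 and Nrarp. They were chosen by symbol from the 32479 gene rows of single-cell count tables, of which 24837 rows held a count in a kept cell, including all 9. The tables come from dorsal epidermis of 4 female C57BL/6N mice at postnatal day 19, with cells captured on the BD Rhapsody system. All 4 mice carried the floxed Cers4 gene on both copies (CerS4fl/fl), which encodes ceramide synthase 4. The 2 control mice (CerS4fl/flK14Cre-) lacked Cre, and the 2 CerS4epi-/- mice (CerS4fl/flK14Cre+) carried Cre under the keratin-14 promoter, which is active in basal and follicle keratinocytes and not in the Langerhans cells and T cells that share the tissue. The study's methods speak of littermates, but the sources used here tie none of these 4 mice to a shared litter or a pair, so the mice were not paired in the main test. Its p-values rest on the spread between the mice of a genotype, which the test moderates with the spread of other genes.

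Library totals ran from 39231945 to 53106317 counts, and 7567 to 9086 cells per mouse were kept (34150 in all), with a median of 3266.5 to 3884 counts per cell. Cers4 itself had 697 and 145 counts (control) against 202 and 270.5 counts (CerS4epi-/-) over all kept cells, so that both CerS4epi-/- libraries exceeded control replicate 2. Most of these counts were in the few sebaceous gland-like cells, 639 and 94 counts in 12 and 2 control cells against 136 and 193 in 26 and 34 CerS4epi-/- cells, where the level was 2832 and 3968 CPM in control and 293 and 432 in CerS4epi-/- mice. IFE basal-like cells held too few to check the labels, 9 counts in each control mouse and 6 and 4 in the CerS4epi-/- mice. Which part of the gene its reads cover was not tested. The libraries of a genotype shared no cell barcode, whereas libraries of different genotypes shared 64 to 102, close to the 72.5 to 92.6 that random draws from the possible barcodes give. The labels name no capture run for any library. If the mice of a genotype shared a run, that run and the genotype cannot be told apart. Fibroblast, endothelial and melanocyte markers stayed low in every mouse, with 6, 5 and 5 genes summing over all kept cells to 13.1 to 54.3, 9.40 to 11.2 and 3.54 to 7.24 CPM (counts per 1000000 counts of the cells summed). By class they were less even. In IFE differentiated-like cells the fibroblast sum was 110 CPM in CerS4epi-/- replicate 2, beside 1.28 in CerS4epi-/- replicate 1 and 3.70 to 12.5 in control. Its part in the results of that class was not tested. A list of 15 immediate early and heat shock genes that tissue dissociation is known to raise (Fos, Jun, Egr1 and others) differed between the genotypes in many groups, and its values stand beside the calls in those groups.

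Cells were grouped without using the 9 genes, the other Notch pathway lists or the Hes and Hey family list. The list of keratinocyte genes that Notch acts on or with, which holds the markers Krt1 and Krt10, was not left out. By their markers, the groups were basal-like, differentiated-like and keratinized-like cells of the interfollicular epidermis (IFE), upper hair follicle-like cells, inner bulge-like cells, sebaceous gland-like cells, T cell-like cells and Langerhans cell-like cells. There were 11907 IFE basal-like, 8997 IFE differentiated-like, 994 IFE keratinized-like, 4304 upper hair follicle-like and 193 inner bulge-like cells. A further 4 clusters met no marker rule and are called by their leading genes, Aldh3a1/Igfbp4 (3498 cells), F3/Serpina12 (2191 cells), Krt6a/Cald1 (948 cells) and 2310046K23Rik/Id4 (376 cells). No cluster was named as outer bulge. All levels are sums for 1 group of cells in 1 mouse. Each CPM value can be set against the same gene in other groups but not against another gene.

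The receptors lie on 3 chromosomes of GRCm39: Notch1 at chr2:26347915-26406675 on the minus strand, Notch2 at chr3:97920800-98057677 on the plus strand and Notch3 at chr17:32339794-32385893 on the minus strand. Notch1, the receptor that drives differentiation in the IFE, was present in both living layers and was higher in the basal-like class taken as a whole. Over the 4 mice its mean level was 270.4 ± 64.8 CPM (SD, n = 4) in IFE basal-like cells, 176 ± 37.8 in IFE differentiated-like cells and 12.3 ± 5.72 in IFE keratinized-like cells. The level in differentiated-like cells was below that in basal-like cells in all 4 mice, by a mean log2 ratio of -0.61 ± 0.04 (SD over mice). The clusters within each class differed. Of the basal-like clusters, Smoc2/Itga3 had 253 ± 56.5 CPM, Clca3a2/Ly6a 334 ± 106 and Top2a/Ube2c 223 ± 13.5. Of the differentiated-like clusters, Krt1/Mt4 had 241 ± 46.2 CPM and Gjb5/Alox12 105 ± 16.9. The mice of the Smoc2/Itga3 and Krt1/Mt4 clusters overlapped. Ratios between groups were taken on CPM + 1 within each mouse, which makes the ratio of a low gene smaller. Its highest mean was in inner bulge-like cells, at 366 ± 42.2 CPM, followed by the Aldh3a1/Igfbp4 cluster at 305 ± 23.8, and the mice of these neighbours in the order did not overlap.

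Notch2 and Notch3, receptors of the suprabasal layers, ran the other way. Notch2 had 32.7 ± 2.54 CPM in IFE basal-like cells, 73.1 ± 4.34 in differentiated-like cells and 130.4 ± 14.5 in the F3/Serpina12 cluster, a log2 ratio of differentiated-like over basal-like of 1.14 ± 0.18, positive in all 4 mice. Its highest mean was in the 2310046K23Rik/Id4 cluster, at 157 ± 20.5 CPM, whose mice overlapped those of the F3/Serpina12 cluster. Notch3 had 42.4 ± 7.95 CPM in basal-like cells and 161 ± 10.9 in differentiated-like cells, a log2 ratio of 1.92 ± 0.26, again positive in all 4 mice. Within the basal-like class, Notch3 was uneven, at 12.3 to 26.2 CPM over the 4 mice in the Smoc2/Itga3 cluster and 108 to 131 in the Clca3a2/Ly6a cluster. Inner bulge-like cells, the Krt75-positive cells beside the bulge stem cells, had the highest Notch3 level, 289.8 ± 8.68 CPM, with every mouse above every mouse of any other group. Upper hair follicle-like cells had 173 ± 6.97 CPM and the Krt6a/Cald1 cluster 166 ± 20.4, with overlapping mice.

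Of the 9 genes, the ligands Jag2 and Dll1 had the most negative log2 ratios of differentiated-like over basal-like cells, and the ligand Jag1 had a small one. Jag2 (chr12:112871421-112893437, minus strand), a membrane ligand of the Serrate type, had 279 and 298 CPM in control and 263 and 259.6 in CerS4epi-/- mice in IFE basal-like cells. In differentiated-like cells it had 7.93 and 9.32 in control and 8.64 and 10.4 in CerS4epi-/- mice, a log2 ratio of -4.78 ± 0.19. The basal-like values were all above the differentiated-like ones, and the Aldh3a1/Igfbp4 cluster, at 318 ± 44.2 CPM, overlapped the basal-like cells. The cycling Top2a/Ube2c cluster of the basal-like class held 266 to 319.7 CPM and the Clca3a2/Ly6a cluster of the same class 66.7 to 116, with no overlap.

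Dll1 (chr17:15587276-15597134, minus strand), a Delta-like ligand known from basal keratinocytes, had its highest mean in IFE basal-like cells, at 67.2 ± 10.1 CPM, above the Aldh3a1/Igfbp4 cluster at 49.1 ± 4.14 without overlap. In differentiated-like cells it stood at 4.66 ± 1.42 CPM, a log2 ratio of -3.61 ± 0.21 over the mice. Jag1 (chr2:136923373-136958693, minus strand), the other Serrate-type ligand, was spread more evenly, with 55.9 ± 11 CPM in basal-like cells, 37.7 ± 7.90 in differentiated-like cells (log2 ratio -0.56 ± 0.06, negative in all 4 mice) and 48.5 ± 2.33 in upper hair follicle-like cells. Its highest mean was in the Aldh3a1/Igfbp4 cluster, at 88.9 ± 6.02 CPM.

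Langerhans cell-like cells, which are not keratinocytes, give a level to set beside the lowest of these. Their counts of these genes can come from free RNA, from doublets or from the cells themselves, which was not tested. At least 1 count (UMI) of Jag2 was found in 4.44% to 11.1% of Langerhans cell-like cells across the mice and in 4.25% to 5.49% of IFE differentiated-like cells, against 49.8% to 56.4% of IFE basal-like cells. For Dll1, the shares were 0% to 4.05% of Langerhans cell-like, 1.98% to 3.37% of differentiated-like and 18.1% to 22.0% of basal-like cells. The median depth was 2471 to 3272 counts per cell in Langerhans cell-like cells, 4095.5 to 5546 in differentiated-like cells and 2834.5 to 3795.5 in basal-like cells. Jag2 and Dll1 in differentiated-like cells were therefore at the level of this comparison, called background here. So were Notch2 in basal-like cells (9.71% to 11.2%, against 5.13% to 13.3% of Langerhans cell-like cells) and Notch3 in the Smoc2/Itga3 cluster (3.11% to 7.05%, against 4.05% to 15.4%).

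**Figure D1:**
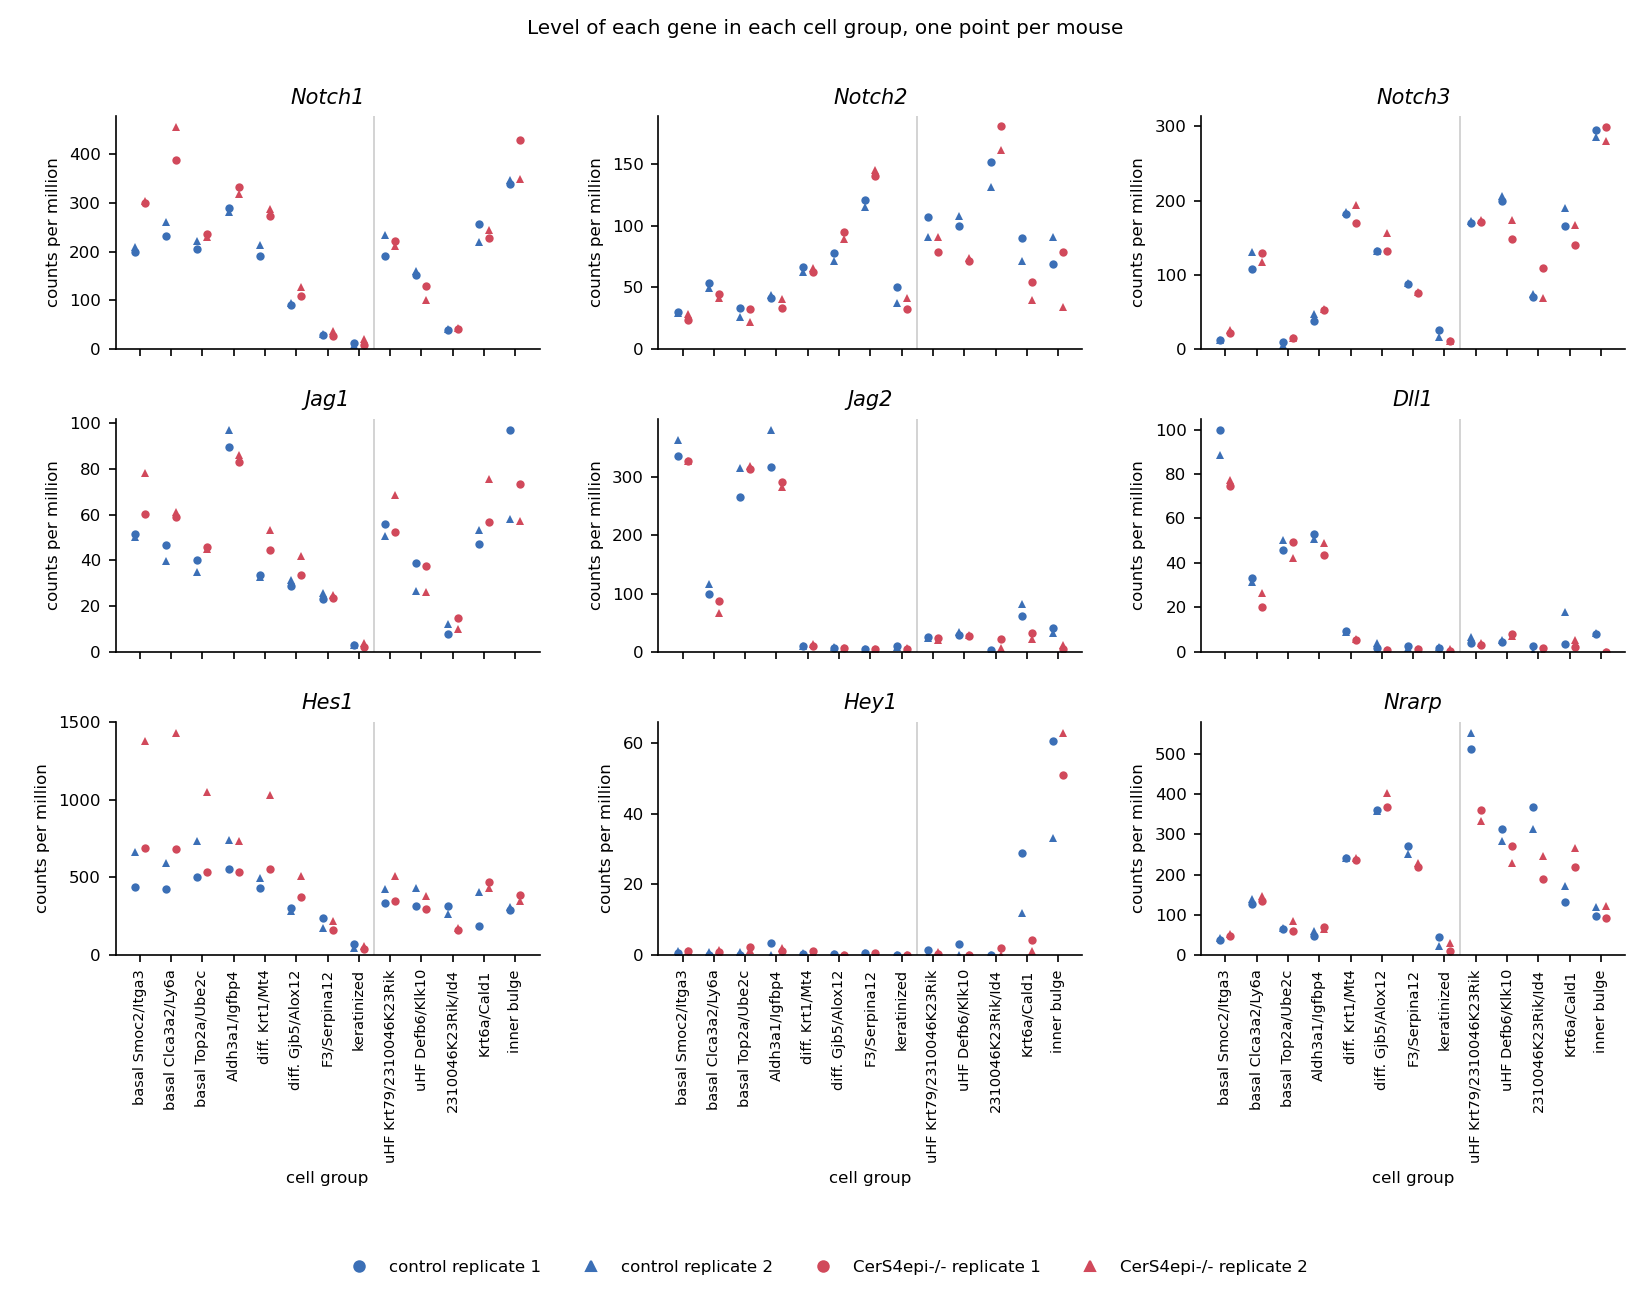
CPM of each of the 9 genes (vertical axis, linear, each panel with its own scale from 0) in groups of cells (horizontal axis). There is 1 point per mouse, blue for control and red for CerS4epi-/-. A line parts 8 groups on the left from 5 on the right for display. The clusters without a marker name, on either side, are not assigned to the interfollicular epidermis or the follicle. Jag2 and Dll1 are high on the left, in basal-like groups; Notch2, Notch3 and Nrarp are higher in the differentiated-like groups in the middle; Hey1 stands near 0 except in inner bulge-like cells and the Krt6a/Cald1 cluster.

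The targets Hes1 and Nrarp differ in the motif matches just before their transcription start. A link of these matches to where the genes were found was not tested. Shown here are the bases before the transcription start of the canonical transcript (GRCm39), 5′ to 3′ along the gene, since a target is switched on by RBPJ bound to such sequence. Capitals mark TGGGAA, the core of the RBPJ site, and CACNAG, the N-box bound by Hes proteins, on either strand.
Hes1 (chr16:29883877-29884126, plus strand): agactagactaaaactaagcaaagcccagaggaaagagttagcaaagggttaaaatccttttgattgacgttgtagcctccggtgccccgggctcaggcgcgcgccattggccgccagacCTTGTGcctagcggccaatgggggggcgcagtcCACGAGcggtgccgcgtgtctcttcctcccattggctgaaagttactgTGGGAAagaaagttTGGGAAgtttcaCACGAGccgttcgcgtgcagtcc
Nrarp (chr2:25070520-25070769, plus strand): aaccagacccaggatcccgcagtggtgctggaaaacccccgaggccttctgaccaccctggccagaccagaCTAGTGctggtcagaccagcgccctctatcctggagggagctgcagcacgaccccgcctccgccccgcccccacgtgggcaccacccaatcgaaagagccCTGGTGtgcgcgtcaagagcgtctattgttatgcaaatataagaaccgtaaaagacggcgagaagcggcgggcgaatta
The Hes1 window, which lies in introns of longer Hes1 transcripts, holds 2 TGGGAA on the gene's own strand, at 49 to 44 and 35 to 30 bases before the start, and 3 CACNAG, the motif of the repressor's own family. The Nrarp window holds no TGGGAA and 2 CACNAG. These letters are common, TGGGAA being found in 22.7% and CACNAG in 36.5% of 21757 promoter windows of the same length, so a match is a description of the sequence and not a site.

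Hes1 (chr16:29882134-29886643, plus strand), a repressor that Notch switches on, was highest in IFE basal-like cells, at 779.6 ± 401 CPM, with 501 ± 199.5 in differentiated-like cells and 382 ± 63.6 in upper hair follicle-like cells. The SD of the basal-like mean came mostly from 1 mouse (CerS4epi-/- replicate 2), and the groups next to each other in this order overlapped. Nrarp (chr2:25070770-25073351, plus strand), an ankyrin protein that limits the signal, had the opposite pattern to Hes1, with 68.6 ± 9.19 CPM in basal-like cells, 304 ± 8.82 in differentiated-like cells and 397 ± 108 in upper hair follicle-like cells. The log2 ratio of differentiated-like over basal-like cells was 2.14 ± 0.18 for Nrarp and -0.58 ± 0.25 for Hes1, each with the same sign in all 4 mice. All of Nrarp lies within the span of the antisense gene Gm13387, and the strand setting of the counting is not given in the sources used here, so reads of the pair are told apart only as far as that setting allows.

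Hey1 (chr3:8726956-8732385, minus strand), another repressor of the same family, was rare, with 154 counts over all kept cells, of which 43 were in the 193 inner bulge-like cells and 35 in the far more numerous IFE basal-like cells. Inner bulge-like cells had 60.6 and 33.1 CPM in control and 50.8 and 62.9 in CerS4epi-/- mice, above every mouse of every other group. The Krt6a/Cald1 cluster came next with 1.03 to 28.9 CPM, and no other group of keratinocytes exceeded 3.41 CPM in any mouse, beside up to 9.21 CPM in T cell-like cells. No count was found in 994 IFE keratinized-like cells, which allows a share of cells with a count of up to 0.302%, counting error only.

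In the outermost cells most of these genes were low. Of the 11 groups, IFE keratinized-like cells had the lowest mean for 6 genes, Notch1, Notch3, Jag1, Hes1, Hey1 and Nrarp. From differentiated-like to keratinized-like cells, 7 of the 8 genes other than Hey1 were lower in all 4 mice, with mean log2 ratios from -3.79 ± 0.47 for Notch1 and -3.70 ± 0.93 for Nrarp to -0.85 ± 0.29 for Notch2. Jag2 was lower in 3 of the 4 mice. The Notch2 value turns positive (0.40 to 0.49) under 3 other clusterings, in which the keratinized-like class takes in many more cells (2803 to 2911 in place of 994).

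The study compared the genotypes to ask what loss of ceramide synthase 4 does to the follicle and the epidermis, and here the question is which Notch genes differed. Differences are given as log2 fold changes of CerS4epi-/- over control ± SE from edgeR's quasi-likelihood test on the sums per mouse (2 against 2 mice), with p-values adjusted over all genes tested in the group and called at 0.05. In IFE basal-like cells, 1 of 9 genes was called, where 3.29% of the 12846 genes tested were called. In IFE differentiated-like cells, 4 of 8 were called (6.93% of 12785 genes), and in upper hair follicle-like cells 1 of 8 (7.88% of 10971 genes). The median log2 fold change of the members tested was 0.47, 0.12 and -0.02 in these classes, beside 0.0035, 0.00067 and 0.0050 over all genes tested.

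Notch1 rose in IFE basal-like and differentiated-like cells of the CerS4epi-/- mice. In IFE basal-like cells it had 207 and 223 CPM in control and 316 and 336 in CerS4epi-/- mice. Both CerS4epi-/- mice lay above both control mice, and the difference passed the test (log2 fold change 0.65 ± 0.08, adjusted p = 0.0054). In IFE differentiated-like cells the values were 139 and 148 in control and 202 and 214 in CerS4epi-/- mice, again without overlap (log2 fold change 0.52 ± 0.07, adjusted p = 0.0046). In both classes Notch1 was called under every alternative run, each mouse left out included, where the fold change ranged over 0.60 to 0.71 in basal-like and 0.47 to 0.58 in differentiated-like cells.

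Within these classes Notch1 was called in the Smoc2/Itga3 cluster (log2 fold change 0.61 ± 0.08, adjusted p = 0.0027; 3.62% of genes called) and the Clca3a2/Ly6a cluster (log2 fold change 0.81 ± 0.10, adjusted p = 0.00096; 2.83%) of basal-like cells. It was called as well in the Krt1/Mt4 cluster (log2 fold change 0.48 ± 0.08, adjusted p = 0.013; 3.56%) of differentiated-like cells. It did not pass in the cycling Top2a/Ube2c cluster (log2 fold change 0.17 ± 0.12, adjusted p = 0.65; 0.783%) or in the Gjb5/Alox12 cluster (log2 fold change 0.35 ± 0.09, adjusted p = 0.051; 5.39%). Nor did it pass in IFE keratinized-like cells (log2 fold change 0.71 ± 0.36, adjusted p = 0.32) or in the F3/Serpina12 cluster (log2 fold change 0.09 ± 0.15, adjusted p = 0.76). The Aldh3a1/Igfbp4 cluster, with 288 and 282 CPM in control and 332 and 318 in CerS4epi-/- mice, had higher values in both CerS4epi-/- mice that did not pass (log2 fold change 0.25 ± 0.10, adjusted p = 0.17). None of its 8 members tested was called (5.95% of 10254 genes).

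The list of 15 dissociation-response genes moved in the same direction in these classes. Its summed level was 22350 and 21408 CPM in control and 25408 and 28599 in CerS4epi-/- mice in IFE basal-like cells, where 6 of 15 genes rose and none fell. It was 15169 and 11566 CPM in control and 19954 and 19929 in CerS4epi-/- mice in IFE differentiated-like cells, where 10 rose and none fell. The 10 Langerhans cell markers summed to 116 to 118 CPM in basal-like cells of the control mice and 138 to 158 in those of the CerS4epi-/- mice, and to 115 to 149 and 165 to 187 in differentiated-like cells. The part of either list in the Notch1, Jag1 and Hes1 results was not tested. In the Aldh3a1/Igfbp4 cluster, where the Notch1 values above did not overlap, 1 of the 15 genes rose and 9 fell (29633 and 29584 CPM in control and 22676 and 23655 in CerS4epi-/- mice).

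Notch2 and Notch3 gave 1 call each. Notch3 rose in the Smoc2/Itga3 cluster of basal-like cells, with 12.3 and 12.7 CPM in control and 20.9 and 26.2 in CerS4epi-/- mice (log2 fold change 0.95 ± 0.16, adjusted p = 0.0086), without overlap. Its share of cells there was at the background level given above. Over the whole basal-like class its values were 31.8 and 40.9 in control and 48.3 and 48.6 in CerS4epi-/- mice, also without overlap, and did not pass (log2 fold change 0.47 ± 0.13, adjusted p = 0.096). They passed in 4 of 16 alternatives, without control replicate 2 (0.67, adjusted p = 0.013), with the replicate block (0.48, adjusted p = 0.021), without the filter on low counts (0.46, adjusted p = 0.0022) and with no gene held out of clustering (0.80, adjusted p = 0.015). Notch2 rose in the F3/Serpina12 cluster, with 121 and 115 CPM in control and 140.2 and 145 in CerS4epi-/- mice (log2 fold change 0.33 ± 0.08, adjusted p = 0.022; 1 of 8 members called, beside 12.0% of 10615 genes). That call was lost with any of the 4 mice left out. In the same cluster, 13 of the 15 dissociation-response genes rose and none fell (10714 and 7360.4 CPM in control and 14327 and 13614 in CerS4epi-/- mice), and their part in the Notch2 result was not tested.

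Of the ligands, Jag1 rose in IFE differentiated-like cells, with 31.1 and 31.8 CPM in control and 39.8 and 47.9 in CerS4epi-/- mice (log2 fold change 0.46 ± 0.10, adjusted p = 0.029). The CerS4epi-/- mice were both higher, and without CerS4epi-/- replicate 2 the fold change was 0.35 (adjusted p = 0.13). In the Krt1/Mt4 cluster of that class the rise was called as well (log2 fold change 0.56 ± 0.11, adjusted p = 0.024), though not without control replicate 2. In basal-like cells, Jag1 had 49.1 and 45.9 in control and 58.3 and 70.5 in CerS4epi-/- mice, without overlap and just short of the threshold (log2 fold change 0.49 ± 0.11, adjusted p = 0.055), which it passed without CerS4epi-/- replicate 1 (0.62, adjusted p = 0.025), with the replicate block, with DESeq2 and without the filter on low counts (0.48 to 0.49).

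Dll1 was lower in the CerS4epi-/- mice in the IFE basal-like and differentiated-like classes but not in every group. Its log2 fold change was -0.0087 ± 0.21 (adjusted p = 0.995) in the cycling Top2a/Ube2c cluster of basal-like cells. In upper hair follicle-like cells it was 0.05 ± 0.34 (adjusted p = 0.96). In IFE basal-like cells, where it is mainly found, its values were 79.9 and 70.6 CPM in control and 57.5 and 60.8 in CerS4epi-/- mice, without overlap, and did not pass (log2 fold change -0.29 ± 0.09, adjusted p = 0.14). In differentiated-like cells it fell, with 5.51 and 6.21 in control and 3.46 and 3.46 in CerS4epi-/- mice (log2 fold change -0.77 ± 0.19, adjusted p = 0.049). This was on the background level given above, and the call was lost when control replicate 2 or either CerS4epi-/- mouse was left out. Jag2 in IFE basal-like cells, at the levels given for the layers, did not pass (log2 fold change -0.09 ± 0.07, adjusted p = 0.56).

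Hes1 varied widely between mice, CerS4epi-/- replicate 2 being the highest in IFE basal-like and differentiated-like cells. In IFE basal-like cells the Hes1 values were 439 and 652 CPM in control and 667 and 1359.9 in CerS4epi-/- mice. Replicate 2 was above replicate 1 in both genotypes there. CerS4epi-/- replicate 2 stood above the other 3 mice and CerS4epi-/- replicate 1 lay close to control replicate 2, and the difference did not pass (log2 fold change 0.94 ± 0.30, adjusted p = 0.14). Without CerS4epi-/- replicate 2 it was 0.34 (adjusted p = 0.48), and it passed without CerS4epi-/- replicate 1, at 1.36 (adjusted p = 0.014), or without control replicate 2, at 1.26 (adjusted p = 0.0064). It also passed with the replicate block (0.89, adjusted p = 0.00072) and without the filter on low counts (0.93). The adjusted p of that unfiltered edgeR fit, 1.1e-29, is far from the 0.14 of the main fit at nearly the same fold change. It is not taken to measure the spread between mice. In IFE differentiated-like cells Hes1 rose, with 362 and 377 in control and 475 and 791 in CerS4epi-/- mice (log2 fold change 0.76 ± 0.18, adjusted p = 0.042). That fold change was 0.37 (adjusted p = 0.029) without the high mouse and 1.07 (adjusted p = 5.1e-05) without the other CerS4epi-/- mouse, and the call was lost with DESeq2 (0.76, adjusted p = 0.29) and with equal cell numbers per mouse. Hes1 was also called in the Clca3a2/Ly6a cluster (log2 fold change 1.08 ± 0.25, adjusted p = 0.033), where leaving out CerS4epi-/- replicate 2 gave 0.45 (adjusted p = 0.24), and in the Gjb5/Alox12 cluster (log2 fold change 0.59 ± 0.12, adjusted p = 0.018). The plot of Hes1 beside the dissociation-response genes shows that CerS4epi-/- replicate 2 had the highest sum of those genes in basal-like cells as well. In differentiated-like cells, where its Hes1 level was also the highest, its sum was 19929 CPM, beside 19954 in CerS4epi-/- replicate 1. The part of those genes in the Hes1 values was not tested.

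**Figure D2:**
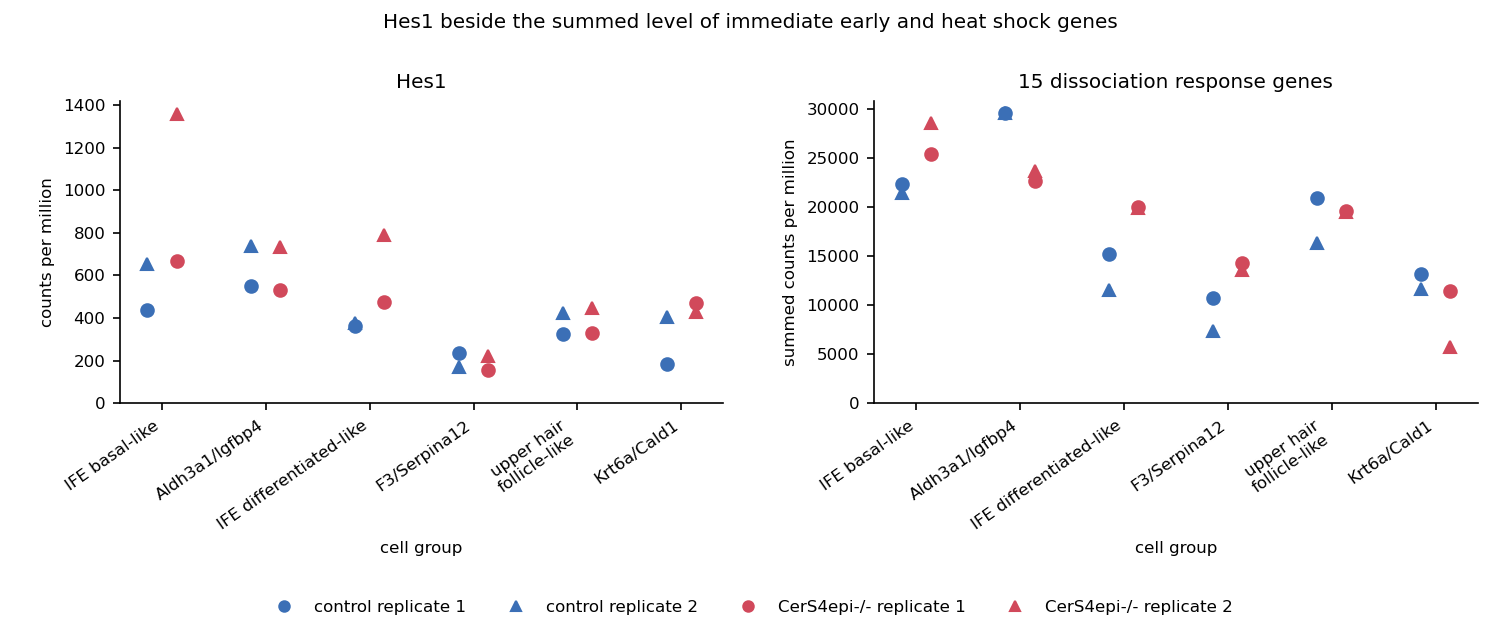
Hes1 in CPM (left) and the summed CPM of 15 dissociation-response genes (right) in 6 groups of cells, with 1 point per mouse. In IFE basal-like cells CerS4epi-/- replicate 2 is the highest mouse in both panels, and in IFE differentiated-like cells both CerS4epi-/- mice are above both control mice in both panels. The CerS4epi-/- mice differ in the latter cells in Hes1 and hardly in the sum.

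Nrarp, the feedback inhibitor, fell in upper hair follicle-like cells. Its values were 466 and 508 CPM in control and 328 and 284 in CerS4epi-/- mice. Both CerS4epi-/- mice were below both control mice (log2 fold change -0.61 ± 0.11, adjusted p = 0.0067), and the adjusted p rose to 0.074 or 0.13 when either control mouse was left out. Of the clusters in this class, the Krt79/2310046K23Rik cluster was called, with 514 and 554 in control and 359.9 and 334 in CerS4epi-/- mice (log2 fold change -0.60 ± 0.09, adjusted p = 0.00028; 7.30% of genes called). In the Defb6/Klk10 cluster the log2 difference was -0.16 ± 0.15, adjusted p = 0.69 (3.86% of genes called). The Krt79/2310046K23Rik cluster result held with any mouse left out. The share of this class was 10.5% and 7.67% of kept cells in control and 16.0% and 16.8% in CerS4epi-/- mice. Within it the Defb6/Klk10 cluster, where Nrarp had 313 and 285 CPM in control and 271 and 228 in CerS4epi-/- mice, had 233 and 134 cells in control and 500 and 552 in CerS4epi-/- mice, and the class held 892 and 697 in control and 1441 and 1274 in CerS4epi-/- mice. The median mitochondrial share was 7.34% and 6.80% in control and 9.81% and 9.19% in CerS4epi-/- mice, and the 8 stressed keratinocyte genes summed to 117 and 171 CPM in control and 675 and 995 in CerS4epi-/- mice. Its dissociation-response sums, 20900 and 16314 CPM in control and 19637 and 19465 in CerS4epi-/- mice, overlapped between genotypes. The 10 Langerhans cell markers summed to 669 to 793 CPM in this class in the control mice and 846 to 945 in the CerS4epi-/- mice. The part of these values in the Nrarp result was not tested. Nrarp passed neither in IFE basal-like cells (log2 fold change 0.32 ± 0.11, adjusted p = 0.16, though 0.33, adjusted p = 0.028 with the replicate block) nor in differentiated-like cells (log2 fold change -0.01 ± 0.07, adjusted p = 0.94).

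**Figure D3:**
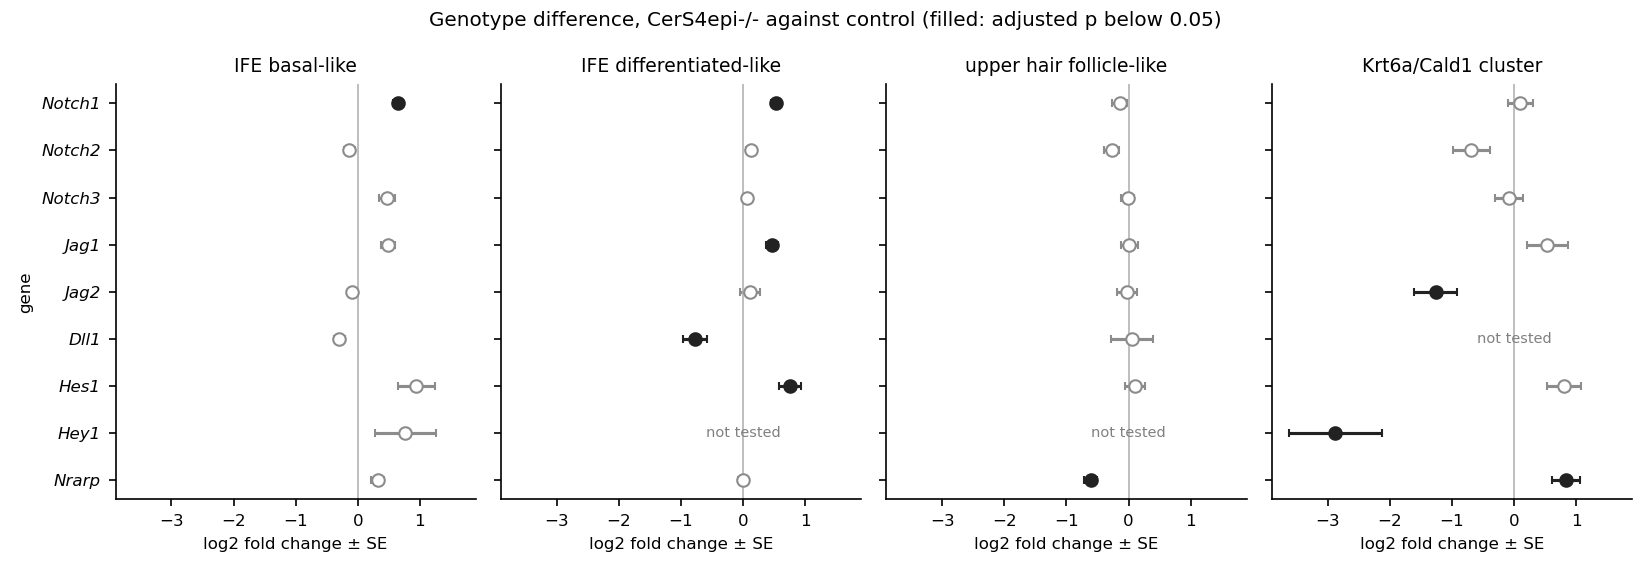
Log2 fold change ± SE of each gene, CerS4epi-/- over control, in 3 classes and the Krt6a/Cald1 cluster, from edgeR; filled points have an adjusted p below 0.05, and a gene without enough counts is marked as not tested. Notch1 is filled in both interfollicular classes and, of the genes tested in upper hair follicle-like cells, Nrarp alone is filled.

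The difference between the classes was tested directly, in a model of both classes with the mouse as a block. The genotype effect in upper hair follicle-like cells minus that in IFE basal-like cells was called for 3 of 8 genes tested, beside 2.58% of 12841 genes. On the log2 scale it was -0.93 ± 0.13, adjusted p = 0.0017, for Nrarp, -0.80 ± 0.12, adjusted p = 0.0033, for Notch1 and -0.79 ± 0.16, adjusted p = 0.015, for Hes1. All 3 stayed called with any mouse left out, but the Hes1 value rests partly on the high mouse, at -0.49, adjusted p = 0.0074, without CerS4epi-/- replicate 2 and -1.07 without CerS4epi-/- replicate 1. In upper hair follicle-like cells, Notch1 had 182 and 221 in control and 188 and 159.9 in CerS4epi-/- mice (log2 fold change -0.15 ± 0.12, adjusted p = 0.56). Hes1 had 327 and 425 in control and 328 and 448 in CerS4epi-/- mice (log2 fold change 0.11 ± 0.16, adjusted p = 0.76), and both overlapped between genotypes. Notch2 there had 105 and 94.1 in control and 76.2 and 82.8 in CerS4epi-/- mice and did not pass (log2 fold change -0.27 ± 0.12, adjusted p = 0.20). The genotype effects in IFE differentiated-like and IFE basal-like cells differed for none of 9 genes at the adjusted threshold of edgeR's test, beside 1.60% of 13469 genes. Before adjustment, 4 of the 9 had a p under 0.05, Nrarp (-0.32 ± 0.09, adjusted p = 0.072) and Notch3 (-0.41 ± 0.11, adjusted p = 0.070) being nearest to a call.

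**Figure D4:**
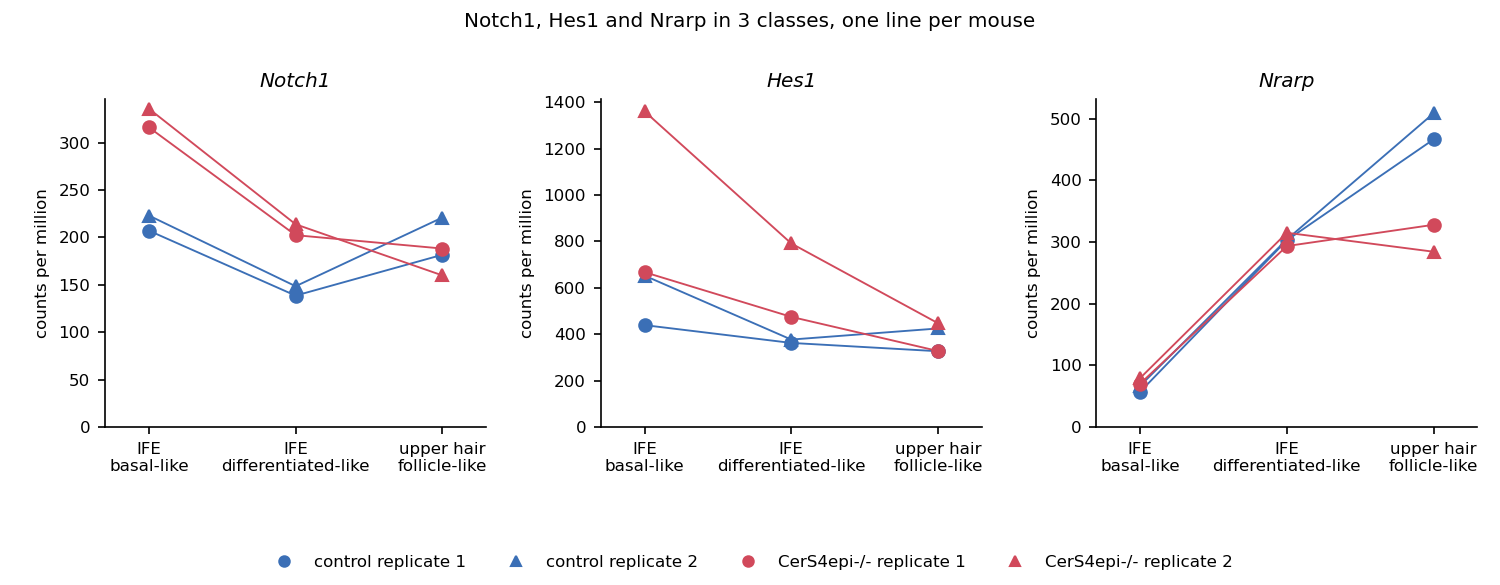
CPM of Notch1, Hes1 and Nrarp (vertical axes from 0) in IFE basal-like, IFE differentiated-like and upper hair follicle-like cells, with 1 line per mouse, blue for control and red for CerS4epi-/-. The red Notch1 lines lie above the blue ones in the interfollicular classes and cross them in upper hair follicle-like cells, where the red Nrarp points are the lowest.

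The Krt6a/Cald1 cluster held the other large differences, with cell numbers that differed as well, at 95 and 65 cells in control and 400 and 388 in CerS4epi-/- mice. Its leading gene Krt6a encodes a keratin of inner bulge, companion layer and stressed keratinocytes. Of 8 members tested there 3 were called, beside 8.91% of 8586 genes. Jag2 fell, with 61.5 and 82.9 CPM in control and 31.9 and 21.6 in CerS4epi-/- mice (log2 fold change -1.26 ± 0.35, adjusted p = 0.042), without overlap. It was found in 7.47% to 16.9% of cells, a range that meets that of Langerhans cell-like cells. Nrarp rose, with 130.2 and 172 in control and 219 and 266 in CerS4epi-/- mice (log2 fold change 0.84 ± 0.23, adjusted p = 0.042), also without overlap. Hey1 was called lower (log2 fold change -2.88 ± 0.75, adjusted p = 0.031), on 8 and 2 counts in control and 9 and 2 in CerS4epi-/- mice. Its levels were 28.9 and 11.8 CPM in control and 4.22 and 1.03 in CerS4epi-/- mice. Hey1 passed the filter on low counts only through the control mice, where it was high, so its call does not support a fall. Hes1 had 184 and 403 in control and 471 and 429 in CerS4epi-/- mice and did not pass (log2 fold change 0.80 ± 0.27, adjusted p = 0.092), though it did in 5 of 16 alternatives. All 3 calls were lost with DESeq2 and without the correction for mouse in clustering, and no member was called without control replicate 1, without CerS4epi-/- replicate 2 or under stricter limits on counts or mitochondrial share per cell. Other values of this cluster moved with genotype as well. The 15 outer bulge markers summed to 10953 and 10535 CPM in control and 4869.6 and 3413 in CerS4epi-/- mice, the 10 IFE differentiated markers to 20788 and 21740 CPM in control and 11521 and 11461 in CerS4epi-/- mice and 8 stressed keratinocyte genes to 4601 and 3855 CPM in control and 6096 and 10535 in CerS4epi-/- mice. The dissociation-response sum was 13132 and 11592 CPM in control and 11402 and 5741 in CerS4epi-/- mice. The median counts per cell were 2171 and 1879 in control and 4356.5 and 4144 in CerS4epi-/- mice. Their part in the 3 calls was not tested. Because cell numbers and levels moved together here, a changed mix of cells within the cluster and a change per cell cannot be told apart.

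In the 2310046K23Rik/Id4 cluster, whose cells share leading genes with the upper hair follicle-like class, Hes1 fell, with 312 and 264 CPM in control and 161 and 169 in CerS4epi-/- mice (log2 fold change -0.78 ± 0.19, adjusted p = 0.037; 1 of 5 members called, beside 2.36% of 4700 genes). The call was lost without control replicate 1 or CerS4epi-/- replicate 1. In this cluster the dissociation-response sum, 20710 and 18188 CPM in control and 23837 and 26714 in CerS4epi-/- mice, and the median counts per cell, 3058 and 2774 in control and 4802 and 4302.5 in CerS4epi-/- mice, did not overlap between genotypes, and their part in the Hes1 result was not tested. Nrarp had 368 and 313 in control and 188 and 247 in CerS4epi-/- mice there and did not pass (log2 fold change -0.63 ± 0.19, adjusted p = 0.10), though it did without control replicate 2 or CerS4epi-/- replicate 2 and under 3 other clusterings. No member was called in IFE keratinized-like cells (0 of 6, beside 4.37% of genes), in inner bulge-like cells (0 of 7, beside 0.414%), in T cell-like cells (0 of 4, beside 0.0223%) or in Langerhans cell-like cells (0 of 1, beside 0.127%) by edgeR. Before adjustment, 1 member of the keratinized-like class and none of the others had a p under 0.05. Inner bulge-like cells numbered 34 to 65 per mouse, and for Notch3, at 295 and 285 in control and 299 and 280.2 in CerS4epi-/- mice, the difference was -0.03 ± 0.22, adjusted p = 0.998.

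Summed over all kept cells, Notch1 (log2 fold change 0.50 ± 0.06, adjusted p = 0.0057) and Jag1 (log2 fold change 0.40 ± 0.08, adjusted p = 0.024) rose and Dll1 fell (log2 fold change -0.34 ± 0.08, adjusted p = 0.036), 3 of 9 members beside 14.3% of 16034 genes. The Jag1 call was lost without control replicate 2 or CerS4epi-/- replicate 2, and the Dll1 call without control replicate 1 or either CerS4epi-/- mouse. IFE basal-like cells, the main source of Dll1, had shares of 37.6% and 39.4% of kept cells in control and 31.6% and 30.2% in CerS4epi-/- mice, so fewer such cells and less Dll1 per cell cannot be told apart in this sum. The Aldh3a1/Igfbp4 cluster, where Jag1 and Notch1 were high, had 7.96% and 5.78% in control and 13.3% and 14.5% in CerS4epi-/- mice. IFE differentiated-like cells had 29.1% and 32.0% in control and 22.7% and 20.7% in CerS4epi-/- mice. A changed mix of cells and a change per cell cannot be told apart for Notch1 and Jag1 in this sum either. The dissociation-response sum over all kept cells was 17000 and 13851 CPM in control and 19707 and 19893 in CerS4epi-/- mice and the sum of the 10 T cell markers 178 and 119 CPM in control and 232 and 261 in CerS4epi-/- mice, and their part in the 3 calls was not tested. Hes1 over all kept cells had 343 and 399 in control and 429 and 707 in CerS4epi-/- mice and did not pass (log2 fold change 0.61 ± 0.22, adjusted p = 0.11), though it did without CerS4epi-/- replicate 1 (0.91, adjusted p = 0.0061), with the replicate block (0.57, adjusted p = 0.028) and without the filter on low counts (0.60, adjusted p = 0.034).

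The other genes of the pathway were counted by list in the IFE basal-like, IFE differentiated-like and upper hair follicle-like classes. Over all genes tested, 3.29%, 6.93% and 7.88% were called in these classes in either direction. Of 8 other receptors and ligands, 2, 1 and 1 were tested and none was called. Of 10 genes for receptor cleavage (such as Adam10 and the presenilins), 10, 10 and 9 were tested and none was called. Of 8 genes that put sugars on the receptors, 7 were tested in each class, and Rfng alone rose, in differentiated-like cells (0.39 ± 0.09, adjusted p = 0.041). Of 17 genes for ligand and receptor uptake, 15 were tested in each class. In differentiated-like cells, the ubiquitin ligase genes Neurl1b and Neurl3 split, Neurl1b rising (1.08 ± 0.22, adjusted p = 0.023) and Neurl3 falling (-0.53 ± 0.11, adjusted p = 0.022). Dtx4, a Deltex ubiquitin ligase, rose in upper hair follicle-like cells (1.00 ± 0.21, adjusted p = 0.013) and in the Aldh3a1/Igfbp4 cluster (1.68 ± 0.41, adjusted p = 0.026) and fell in the F3/Serpina12 cluster (-1.71 ± 0.30, adjusted p = 0.0067).

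Of 22 genes of the nuclear complex and its corepressors, 22, 21 and 21 were tested, and the corepressor Ctbp2 rose in upper hair follicle-like cells (0.70 ± 0.18, adjusted p = 0.037). In the F3/Serpina12 cluster 19 of this list were tested and 4 rose and none fell, beside 12.0% of all genes called there, led by the Groucho corepressor Tle3 (0.64 ± 0.10, adjusted p = 0.0036) and the acetyltransferase Ep300 (0.48 ± 0.10, adjusted p = 0.016). In the Aldh3a1/Igfbp4 cluster, Lfng, a sugar transferase that shifts which ligands a receptor answers, fell (-1.05 ± 0.17, adjusted p = 0.0022). Of the 10 other Hes and Hey family genes, 2 were tested in each class, and Bhlhe40 rose in differentiated-like cells (0.87 ± 0.18, adjusted p = 0.023). For the cleavage, sugar, uptake and nuclear lists the median log2 fold change in each class lay between -0.05 and 0.13 and for the Hes and Hey family between 0.32 and 0.57 on 2 genes, beside medians near 0 over all genes.

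Of 13 genes that Notch is known to act on or with in keratinocytes, all were tested, and 2 rose and 2 fell in IFE basal-like cells, 2 rose and 1 fell in differentiated-like cells, and none rose and 3 fell in upper hair follicle-like cells, beside 3.29%, 6.93% and 7.88% of all genes called in either direction. The list medians were 0.02, -0.03 and -0.24. The alarmin Il33 fell in all 3 classes (-0.82 ± 0.12, adjusted p = 0.013 in basal-like, -0.98 ± 0.17, adjusted p = 0.012 in differentiated-like and -1.25 ± 0.32, adjusted p = 0.036 in upper hair follicle-like cells). The cell cycle inhibitor Cdkn1a rose in basal-like cells (0.65 ± 0.11, adjusted p = 0.020), and the transcription factor gene Ascl2 fell there (-0.55 ± 0.09, adjusted p = 0.019). The suprabasal keratin gene Krt1 rose in differentiated-like cells (0.43 ± 0.08, adjusted p = 0.021), while its partner Krt10 fell in upper hair follicle-like cells (-0.54 ± 0.15, adjusted p = 0.047).

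The genes most like each member across cell groups were found from Pearson's r of log2(CPM + 1) over 44 points, 11 groups in 4 mice, among 9704 genes. The points share their libraries, and r is given as a description. Jag2 was most like Itga3 (0.940), Lamb3 (0.923), Atic (0.920), the first 2 being an integrin and a laminin chain with which basal cells hold to the basement membrane. Notch1 was most like Nrbp2 (0.931), Bcr (0.931), Nfib (0.929), Notch2 like Kmt5a (0.882), Pak3 (0.881), Ptgr1 (0.876) and Notch3 like Ank3 (0.906), Rdh12 (0.890), Rab25 (0.880). For the other ligands, the nearest were Nt5dc2 (0.911), Fxyd3 (0.906), Uqcrh (0.899) for Jag1 and Ccn1 (0.880), Ackr4 (0.871), Fuom (0.869) for Dll1. Hes1 was nearest to Aldh2 (0.900), Eif3k (0.895), Rarg (0.884) and Nrarp to Mtfr1 (0.910), Hacd2 (0.904), Evpl (0.895), Evpl encoding the cornified envelope protein envoplakin. No other member appeared among these nearest genes, and Hey1, with too few counts, was left out.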

How the data were processed

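Epidermal cells of the 4 mice were labelled with BD sample tags and captured on BD Rhapsody. The authors trimmed reads with fastp 0.23.2, assigned barcodes, UMIs and sample tags with their own scripts, and counted with STARsolo (STAR 2.7.10a) on GRCm39 with Gencode vM29 protein-coding and lncRNA genes, in the mode that takes exons and introns and prefers exonic over antisense overlap. The deposited values are expected counts of UMIs (reads mapping to several genes were shared out by an EM step, so 4.55% to 4.81% of entries are not whole), with no filter on cells. The expected counts were rounded after summing.

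Barcodes under 1200 counts or above 20% mitochondrial counts were dropped. Scrublet marked only 3 cells, so doublets are taken to be present. Cells were scaled with scran 1.30.0, projected on 100 principal components, corrected for mouse with an own implementation of Harmony, and clustered with 30 neighbours (Leiden, resolution 0.8, the most central of 10 seeds, scanpy 1.11.5 in Python 3.11.15, igraph 0.11.9). The 9 genes, the other Notch pathway lists and the Hes and Hey family list were left out of the clustering. The list of keratinocyte Notch targets and partners was not. None of the 9 was among the 3000 most variable genes, and 6 genes of the lists left out were. The run with no gene held out therefore returned those 6 and not the 9. A cluster took the name of the marker list with the highest mean z-score of its detected markers across clusters. That list had to lead the next by at least 0.25, with at least 3 markers detected. It also had to hold no fewer of the cluster's leading genes than any other list. Members, gene lists and markers were chosen with earlier results of these data known.

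Counts were summed per mouse over each group with at least 20 cells in every mouse and tested with edgeR 4.0.16 (R 4.3.3; TMM scaling, filterByExpr, glmQLFit and glmQLFTest, two-sided, Benjamini-Hochberg over all genes tested, threshold 0.05). SE is the absolute log2 fold change divided by the square root of F. Class differences in the genotype effect used an interaction with the mouse as a block. The study split merged cells into random pseudoreplicates for DESeq2; here the mouse was the replicate and DESeq2 1.42.0 an alternative. With 2 against 2 mice an exact permutation test cannot go below p = 0.333, so none is given. The scripts were tested on simulated counts. All 9 members are named wherever they have counts; of the other lists, up to 3 called genes with the smallest adjusted p in a group. Single clusters of a class, the unnamed clusters and the crossed pairing were added after seeing the data. Sources used here give no shared litter or day for equal replicate numbers, and with 2 pairs the numbers were not taken to pair the mice. Gene positions and promoters are from GRCm39 with Gencode vM39, whose 9 gene IDs equal those of the files. A further promoter is not reported here.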

Additional observations from a re-analysis of the deposited data

Results flagged for a closer look

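For 3 genes, the genotype effect differed between classes of cells by a test of the difference itself (edgeR, interaction of genotype and class with the mouse as a block). On the log2 scale, the effect in upper hair follicle-like cells minus that in IFE basal-like cells was -0.93 for Nrarp, -0.80 for Notch1 and -0.79 for Hes1. Nrarp passed in upper hair follicle-like cells (log2 fold change -0.61 ± 0.11, adjusted p = 0.0067) and not in basal-like cells (log2 fold change 0.32 ± 0.11, adjusted p = 0.16). Notch1 passed in basal-like cells (log2 fold change 0.65 ± 0.08, adjusted p = 0.0054) and not in upper hair follicle-like cells (log2 fold change -0.15 ± 0.12, adjusted p = 0.56). Hes1 passed in neither (log2 fold change 0.94 ± 0.30, adjusted p = 0.14 and log2 fold change 0.11 ± 0.16, adjusted p = 0.76), and its difference between the classes ran from -1.07 to -0.49 with 1 mouse left out, -0.49 without CerS4epi-/- replicate 2. No group holds the 4 mice per genotype needed to look for a single stray mouse.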

How the results depend on the processing

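Of 25 called fold changes (285 values under alternatives), 223 values kept direction and call, 61 lost the call and 1 reversed; 11 of the 25 never lost it. The number of called members moved as follows, the cause not tested. The runs at Leiden resolution 1.2, without Harmony and with no gene held out also used another Leiden seed than the main one. In IFE basal-like cells (1 called) it was 5 with the replicate block, 2 with DESeq2, 4 without the filter on low counts and 2 with no gene held out of clustering. In IFE differentiated-like cells (4) it was 1 with DESeq2, 2 with no gene held out and 2 with equal cell numbers per mouse. In upper hair follicle-like cells (1) it was 2 without Harmony, and in IFE keratinized-like cells (0) it was 1 at Leiden resolution 1.2. In inner bulge-like cells (0) it was 4 with another Leiden seed and 4 with no gene held out, where the class held 715 and 983 cells in place of 193. In the Aldh3a1/Igfbp4 cluster (0) it was 1 at resolution 1.2. In the F3/Serpina12 cluster (1) it was 0 at resolution 1.2, without Harmony and with no gene held out. In the Krt6a/Cald1 cluster (3) it was 0 with DESeq2, without Harmony, with at least 2000 counts per cell and with at most 10% mitochondrial counts, and 1 with equal cell numbers. In the 2310046K23Rik/Id4 cluster (1) it was 0 with the replicate block, with DESeq2 and with equal cell numbers. Leaving out 1 mouse, which leaves a genotype with a single mouse assumed to vary like the other genotype, gave 1 to 3 in IFE basal-like, 2 to 4 in differentiated-like, 0 to 2 in keratinized-like and 0 to 1 in upper hair follicle-like cells, 0 to 3 in the Krt6a/Cald1, 0 to 2 in the 2310046K23Rik/Id4 and 0 in the F3/Serpina12 cluster, and 1 to 3 over all kept cells.

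Signs turned for Hes1 in the 2310046K23Rik/Id4 cluster (0.079 with no gene held out), for Notch1 in upper hair follicle-like cells (0.022 without Harmony) and for Hes1 there (-0.14 to 0.33 with 1 mouse left out). The mean log2 ratio of keratinized-like over differentiated-like cells turned for Notch2 (0.48 at resolution 1.2, 0.49 without Harmony, 0.40 with no gene held out) and Hey1 (0.039 with no gene held out), and under those 3 settings 1 member was higher in every mouse. With cells thinned to 1200 UMIs the mean share with a UMI was 20.7% for Notch1, 6.52% for Notch2, 10.8% for Notch3, 5.70% for Jag1, 13.7% for Jag2, 3.68% for Dll1, 34.8% for Hes1, 0.146% for Hey1 and 16.5% for Nrarp.

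Deviations of same-numbered mice correlated at 0.0524 over all kept cells, 0.322 in basal-like, 0.321 in differentiated-like and -0.138 in upper hair follicle-like cells. The replicate block and, in upper hair follicle-like cells, the crossed pairing (1 member called) use these numbers. Sebaceous gland-like cells, with 12 and 2 control cells, had no test.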

Other observations

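Sebaceous gland-like cells, 12 and 2 in control and 26 and 34 in CerS4epi-/- mice, had too few control cells for a test. Notch2 had 66.5 and 169 CPM in control and 34.4 and 22.4 in CerS4epi-/- mice, Notch3 53.2 and 127 in control and 45.2 and 60.5 in CerS4epi-/- mice and Nrarp 88.6 and 211 in control and 155 and 177 in CerS4epi-/- mice. No Hey1 count was found in these 74 cells, which allows a share of up to 4.05%, counting error only.

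T cell-like cells, which the keratin-14 Cre does not target, held Notch1 at 136 and 146 CPM in control and 150.1 and 89.1 in CerS4epi-/- mice. A Notch1 UMI was found in 17.1% to 26.6% of these cells at a median depth of 1541 to 1904 counts per cell, against 6.67% to 17.9% of Langerhans cell-like cells at 2471 to 3272.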
